A study of Drosophila melanogaster with 3 samples.

Results

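The genes described are 54 Drosophila melanogaster genes that encode homeodomain transcription factors and do not belong to the Hox genes proper. They were chosen by name from a fixed list, all 54 symbols were found in the Ensembl annotation, and they stand among 18164 annotated genes on 6 chromosome arms. The assay was ChIP-seq, in which DNA bound by a protein is recovered with an antibody and sequenced, on whole prepupae of 24 hours with both sexes pooled. They came from the transgenic line salr-GFP, which stably expresses spalt-related (salr) with green fluorescent protein at its C terminus. The 3 biological replicates, called libraries 1, 2 and 3, form a single group, and the labels give no promoter for the transgene. Their assay title and antibody field name immunoprecipitated material, while their free text speaks of input controls, so the label of every value below is uncertain to that extent. In whole animals, a weak peak in many cells and a strong peak in few cells cannot be told apart.

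Homeodomain proteins bind short A/T-rich DNA through a conserved helical fold and set the identity of body regions, organs and cell types. The family falls into classes such as paired, NK, LIM, POU, sine oculis and TALE. The spalt proteins salm and salr are zinc finger factors that act in the same developing organs, such as the wing, the eye and the muscles, and are known chiefly as repressors. The list crosses the border of the Hox clusters at 3 genes. The annotation places bcd, zen and ftz between lab and Antp, inside the Antennapedia complex, although they do not act as Hox genes.

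Few of these genes had a strong promoter peak in the list made from all 3 libraries. A peak of the list that passed the authors' irreproducible discovery rate (IDR) threshold had its summit within 1000 bp of a transcription start site (TSS) of 3 of 54 members, namely tin, bcd and cad. This is 5.56% (Wilson interval 1.91% to 15.1%), beside 13.5% of all 18164 genes. Members are longer than most genes, with a median length of 9212 bp against 1656 bp. Among genes of the same length decile and number of TSSs the share was 19.2%, which corresponds to 10.4 of 54 members. The difference was smaller for peaks of any strength. With the pooled list of 30000 peaks of any strength, 29 of 54 members had a promoter summit, against 30.5 for genes of the same class and 43.5% of all genes. Counted as pairs of a gene and a promoter summit, the pooled list gave 42 against 57.4 for the class, a ratio of 0.731. The whole lists of the libraries gave pair ratios of 0.646, 0.705 and 1.07, below 1 in libraries 1 and 2 and above it in library 3. No p-value is attached to these counts, because the members were listed with earlier results of these data known and there is no second group of libraries.

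**Figure D1:**
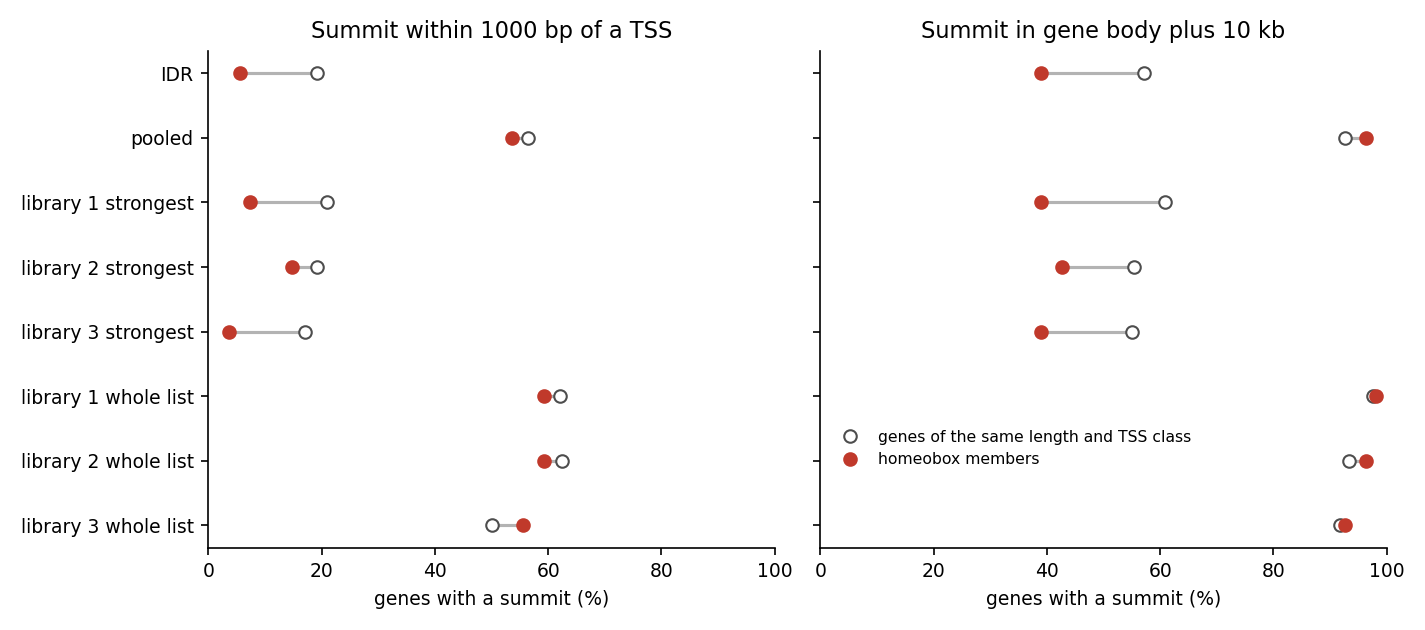
The share of genes (%) with a summit within 1000 bp of a TSS (left) and in the gene body plus 10 kb (right), for 54 homeobox members (filled) and for genes of the same length and TSS class (open), in each peak list. In the IDR list and in the strongest peaks of the 3 libraries the members lie to the left, from 3.70% to 14.8% at promoters, whereas in the whole lists both symbols lie close together.

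The libraries differed in how many members had a strong promoter peak. Taking from each library its 3839 strongest peaks, as many as the IDR list holds, 4 members had one in library 1, 8 in library 2 and 2 in library 3. Genes of the same class gave 11.3, 10.4 and 9.27 in that order. The shares of members were 7.41%, 14.8% and 3.70%, beside 15%, 12.9% and 12.1% of all genes. In library 2 the members thus lay above the share of all genes, though below their class. Libraries 1 and 3 lay farther below the class value than library 2, with a ratio of members to class of 0.447 ± 0.289 (SD, n = 3). The ratio was 0.353 in library 1, 0.771 in library 2 and 0.216 in library 3, below 1 in all 3. When IDR peaks were kept only if strong in both other libraries, 1 member remained without library 1 (5.62 for the class), 2 without library 2 (6.97) and 2 without library 3 (6.35).

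The peak at tin was the strongest and the steadiest of the promoter peaks. tin encodes the NK factor Tinman, required for the heart and the dorsal mesoderm. Its summit lay 204 bp upstream of the TSS in a peak on 3R from 21378727 to 21378861 (dm6), at rank 742 of the 3839 IDR peaks. Relative signal, a peak's deposited signal divided by the median signal of all peaks in that library's list, was 6.89 in library 1, 6.62 in library 2 and 5.80 in library 3. The mean was 6.43 ± 0.569 (SD, n = 3), and the peak was among the 3839 strongest of each library, at ranks 604, 456 and 1126.

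The other promoter peaks were uneven across libraries. bcd encodes Bicoid, the maternal determinant of the anterior of the embryo. Its peak on 3R from 6759508 to 6759851 had its summit 214 bp upstream of the TSS, with a relative signal of 2.68 in library 1, 1.74 in library 2 and 5.15 in library 3. It was highest in library 3 and fell outside the strongest peaks in library 2, where it ranked 5760. cad encodes Caudal, which patterns the posterior embryo and the gut. Its peak on 2L from 20770395 to 20770738, with the summit 164 bp upstream, had 3.28 in library 1, 3.14 in library 2 and 0.940 in library 3, where it ranked 17013, so library 3 was lowest here and highest at bcd. The means of 3.19 ± 1.76 at bcd and 2.45 ± 1.31 at cad (SD, n = 3) thus had wide spreads. bcd was among the strongest peaks in libraries 1 and 3, and cad in libraries 1 and 2.

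The sequences under these peaks are shown because the promoter summits differ in base composition, and because the strongest summit by pooled signal in an intron of each of zfh1, Awh and hth serves for comparison. Each is the 101 bases centred on the IDR summit, plus strand of Release 6 (dm6), with every run of 6 or more bases made of A and T alone in capitals. The intervals are chr3R:21378723-21378823 for tin, chr3R:6759630-6759730 for bcd, chr2L:20770517-20770617 for cad, chr3R:30781723-30781823 for zfh1, chr3L:3853005-3853105 for Awh and chr3R:10518016-10518116 for hth. The genes bcd and hth are on the minus strand.
tin: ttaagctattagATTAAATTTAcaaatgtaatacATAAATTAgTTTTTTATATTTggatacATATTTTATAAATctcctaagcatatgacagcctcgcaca
bcd: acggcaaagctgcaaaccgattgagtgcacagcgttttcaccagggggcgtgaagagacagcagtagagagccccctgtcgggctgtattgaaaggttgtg
cad: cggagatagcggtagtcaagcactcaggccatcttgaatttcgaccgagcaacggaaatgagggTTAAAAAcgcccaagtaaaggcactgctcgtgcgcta
zfh1: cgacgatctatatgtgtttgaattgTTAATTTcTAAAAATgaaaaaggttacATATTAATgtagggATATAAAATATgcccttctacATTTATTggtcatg
Awh: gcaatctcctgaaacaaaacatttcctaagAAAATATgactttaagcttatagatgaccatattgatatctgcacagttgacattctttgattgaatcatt
hth: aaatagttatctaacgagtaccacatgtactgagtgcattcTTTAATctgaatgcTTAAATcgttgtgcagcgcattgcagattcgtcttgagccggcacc

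The tin summit was the richest in A and T of the promoter summits. Its GC content was 23.8%, and 43 of its 101 bases lay in A/T-only runs, the longest of 13 bases. At bcd the GC content was 55.4% and no run (0 bases) reached 6 bases, and at cad it was 51.5% with a single run of 7 bases. The intron summit of zfh1 resembled tin, with a GC content of 27.7% and 40 bases in runs. Awh had 30.7% and hth 42.6%. The intron summit of nub, whose sequence is not shown, had 54.5% and 0 bases in runs, closer to bcd.

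Most members whose promoter had a listed peak had a weak one. In the whole lists, 32 members had a promoter summit in library 1, 32 in library 2 and 30 in library 3, beside 33.5, 33.7 and 27.0 for genes of the same class. These are 59.3%, 59.3% and 55.6% of members, beside 51.5%, 48.6% and 38.7% of all genes. Of the 54 members, 19 had one in every library, 10 in 2 libraries, 17 in a single library and 8 in none. No such split over all genes is given here, so it does not set the members apart. The members with none were achi, acj6, bap, exd, prd, repo, unpg and vis. The strongest promoter peak of a member had a median relative signal of 1.13 in library 1, 1.42 in library 2 and 0.980 in library 3. To enter the 3839 strongest peaks it had to reach 2.14, 2.17 and 2.39. The median over all promoter peaks of a list was 1.12, 1.10 and 1.14, so a typical promoter peak of any gene lay below that limit too.

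Library 2 had strong promoter peaks at members that the IDR list does not include. They lay at Dll, the limb selector gene (relative signal 3.43, 90 bp upstream of the TSS), at hth, a TALE cofactor of Hox proteins (3.01, 167 bp upstream of the inner TSS), and at zfh2, a zinc finger homeodomain gene (2.88, 271 bp upstream). The others were toy, an upstream activator of ey in the eye (2.75), vnd, a neuroblast patterning gene (2.58), and Lim3, a motor neuron gene (2.36). Of these, zfh2 was also among the strongest of library 1, at rank 3836, the lower end of that range. None of them was among the strongest of library 3. However, zfh2 and toy lie on chromosome 4, where library 3 had 0 of its strongest peaks and the IDR list held 1. No gene of that arm thus had such a peak in library 3. With cad and tin they make up the 8 members of library 2.

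Around the genes the pattern was similar, and shallower in the IDR list and in libraries 1 and 3 but not in library 2. In the gene body plus 10 kb on each side, 21 of 54 members had an IDR summit (38.9%), beside 30.9 members (57.2%) for genes of the same class and 48.6% of all genes. The strongest peaks of libraries 1, 2 and 3 gave 21, 23 and 21 members. These are 38.9%, 42.6% and 38.9% of members, beside 51.8%, 47.2% and 46.2% of all genes, closest in library 2. The ratio of members to class was 0.705 ± 0.0646 (SD, n = 3), below 1 in every library. It was 0.639, 0.768 and 0.707 in that order, beside 0.771 at promoters in library 2. Any pooled summit was present for 52 of 54 members, beside 50.01 for the class and 90.4% of all genes. Only exd and onecut had none. The windows held 37 distinct IDR summits, which make 38 pairs with members because the bcd peak also lies in the window of zen. Genes of the same class gave 69.1 pairs. The number of IDR summits per member was 0 for 33 members, 1 for 13, 2 for 3, 3 for 4 and 7 for hth alone, with a median of 0 for members and for all genes. When IDR peaks had to be strong in both other libraries, 11 members remained without library 1 (21.2 for the class), 16 without library 2 (24.7) and 12 without library 3 (23.1).

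Most IDR summits in these windows lay away from the promoter of the homeobox gene itself. Of the 37, 3 were at a member's own promoter, 9 at the promoter of another gene, 11 in an intron and 1 in an exon of the member, 4 inside another gene and 9 in intergenic sequence. Within 1000 bp of any TSS there were 12 (32.4%, Wilson interval 19.6% to 48.5%), against 49.6% (48.1% to 51.2%) of all 3839 IDR summits. The long gene hth alone held 7 of the 37, all among the 11 in introns, which lowers the promoter share. The intervals treat such neighbouring summits as independent, so they are not a test of a difference. The sequence of the windows also held less promoter, 19.8% of bases within 1000 bp of a TSS against 25.7% over the windows of all genes, and members had a mean of 3.00 other genes with a TSS in their window against 5.75 for genes of the same class. The part of this sparse surrounding in the lower window counts was not tested.

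Per base, the difference was largest in promoter sequence. In promoter sequence of the member windows there were 33.5 IDR summits per Mb, against 60.3 over all gene windows, a ratio of 0.555. In sequence farther from a TSS there were 17.2 against 20.4, a ratio of 0.843. The strongest peaks of the libraries gave ratios of 0.577 ± 0.198 in promoter sequence and 0.772 ± 0.0851 in the rest (SD, n = 3), and each library lay below 1 in both. With whole lists the ratios were 0.936 ± 0.153 and 1.04 ± 0.0865 (SD, n = 3), and libraries lay on both sides of 1. Of the promoter peaks listed in member windows, the strongest made up 15.5%, 14.4% and 6.80% in libraries 1, 2 and 3. Elsewhere they made up 19.5%, 17.5% and 21.5%, so library 3 differed most. In the pooled list, 12 of 100 promoter peaks in member windows had passed IDR (12.0%, Wilson interval 7.0% to 19.8%), against 20.1% (19.3% to 20.9%) outside them. For peaks farther from a TSS these shares were 7.84% (5.36% to 11.3%) and 9.47% (9.07% to 9.88%). The intervals overlap in both cases. They treat neighbouring peaks as independent, so their overlap is not a test of a difference.

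**Figure D2:**
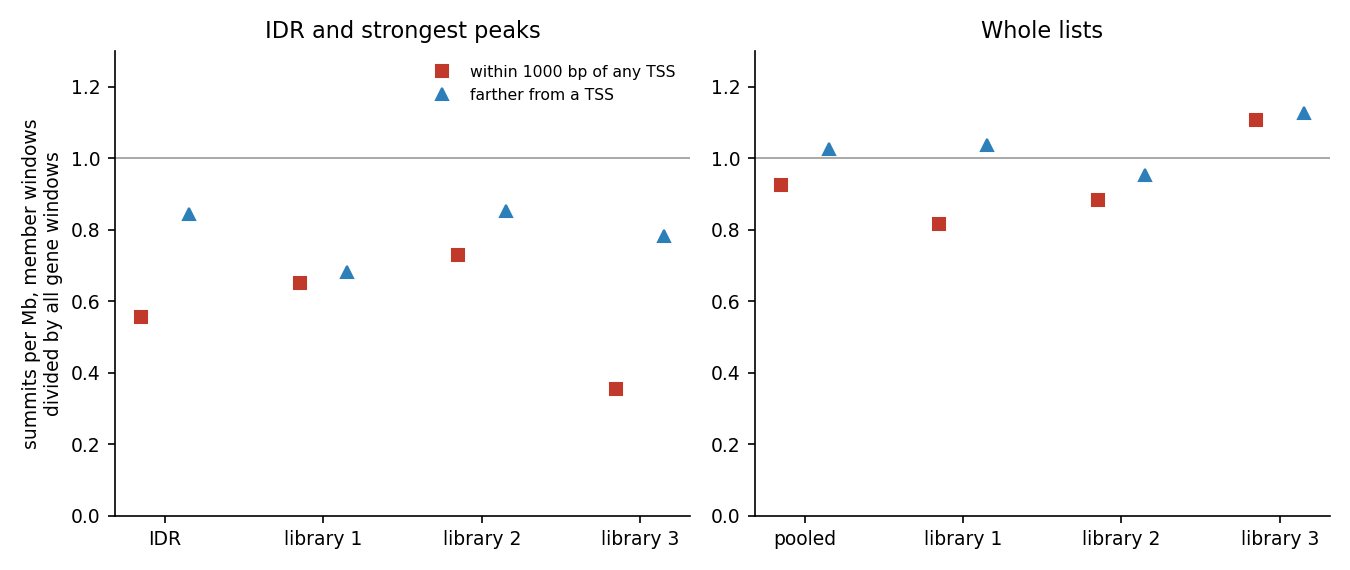
Summits per Mb in member windows divided by summits per Mb over the windows of all genes, for sequence within 1000 bp of any TSS (squares) and farther away (triangles); the left panel shows the IDR list and the 3839 strongest peaks of each library, the right panel the lists of 30000. All points on the left lie below 1, down to 0.353 for promoter sequence in library 3, and those on the right lie around 1, from 0.816 to 1.13.

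The genes next to the members had about as many IDR promoter summits as their class. Of 141 genes outside the homeobox lists with a TSS in a member window, 18 had an IDR promoter summit (12.8%, Wilson interval 8.23% to 19.3%), beside 18.1 for genes of their own length and TSS class. With the strongest peaks, 20 had one in library 1 (20.3 for the class), 14 in library 2 (16.9) and 10 in library 3 (16.3). Library 1 thus lay near the class value and libraries 2 and 3 below it, library 3 the farthest. The difference between members and neighbours was not tested.

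The strongest IDR peaks in these windows sat mainly at neighbouring genes or in introns. The first, at rank 78, lay 20362 bp from the TSS of C15, an NK factor of the distal leg, but 580 bp from the TSS of the neighbouring gene sp3 (3R, 21520248 to 21520477). Its relative signal was 18.6 in library 1, 7.52 in library 2 and 22.6 in library 3, lowest in library 2. The next lay in the window of tup, a LIM factor also called Islet, at the promoter of CG10602 (2L, 18857647 to 18857895), with 13.6, 9.17 and 8.79 in the same order. Weaker peaks in the window of ro lay inside T48 and at the promoters of CG5500, Rb97D and ms(3)K81. Further IDR peaks in the window of tin lay at the promoter of mod(mdg4) and at those of pre-mod(mdg4) genes, without a match in library 3. Those of cad lay inside dia and at the promoter of Pomp. Such peaks are assigned to the members by distance alone.

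Introns of zfh1, Awh and hth held IDR peaks. zfh1 encodes a zinc finger homeodomain protein of mesoderm and blood cells. Its peak on 3R from 30781647 to 30781877 lay 1485 bp upstream of the inner TSS, at rank 366, with a relative signal of 9.98, 8.96 and 6.87 in libraries 1, 2 and 3 (8.60 ± 1.59, SD, n = 3). An antisense RNA gene, asRNA:CR45189, overlaps the summit. Awh encodes Arrowhead, a LIM factor needed for abdominal histoblasts and salivary gland imaginal cells. Its strongest peak on 3L from 3852963 to 3853136, 6849 bp downstream of the TSS, had 7.66, 4.54 and 7.73, lowest in library 2. Awh had a second intron peak 5816 bp from the TSS (3.16 ± 0.953, SD, n = 3) and an intergenic one beyond its end.

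Other peaks within the transcribed part of a member were at otp, nub, so and tup. otp, a paired-like gene of the hindgut and the brain, had an exon peak on 2R from 20884496 to 20884681, with 6.28, 3.23 and 12.2 in libraries 1, 2 and 3, a wide spread (7.24 ± 4.56, SD, n = 3). nub, a POU gene of the wing hinge and appendages, had an intron peak at 2.19 in library 1 and 5.29 in library 2 that had no counterpart in library 3. so, the sine oculis gene of the eye, had a peak in its transcribed region within 1000 bp of the TSSs of CG11145 and lncRNA:CR44203 (2R, 7429234 to 7429434), with 4.09, 11.9 and 5.02, highest in library 2. The peak inside tup (2L, 18866616 to 18866959) lay within 1000 bp of the TSSs of mir-4946 and FBtr0309719_df_nrg, with 3.27, 3.14 and 3.87. The peak in the window of Pph13, a photoreceptor gene, was even across libraries at 4.31, 4.07 and 4.63 but lay 106 bp from the TSS of cold.

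**Figure D3:**
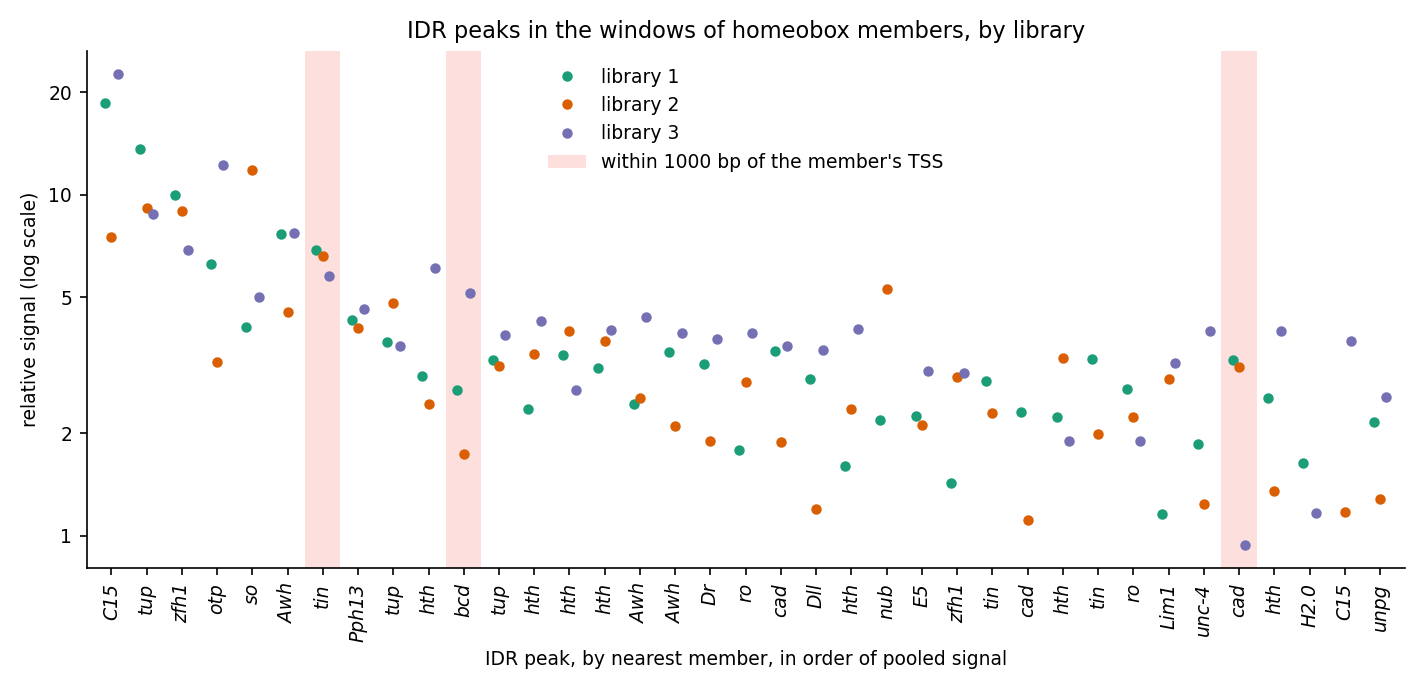
Relative signal (log scale) of the 37 IDR peaks in member windows in libraries 1 to 3, ordered by pooled signal and named by the nearest member; shading marks the 3 peaks at a member's own promoter. Most peaks lie between 1 and 5, the peak near C15 reaches 22.6 in library 3, and missing points are libraries without a summit within 100 bp.

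As a set, the IDR peaks of the member windows ranked slightly below the rest. Their median relative signal was 2.91 in library 1, 2.86 in library 2 and 3.93 in library 3, against 3.43, 3.01 and 4.22 for the other IDR peaks, lower in 3 of 3 libraries. Only 15 of 37 (40.5%) were among the 1919 strongest IDR peaks, and their median IDR rank was 2194. Of the 37, 31 (83.8%) were matched in all 3 libraries within 100 bp, about the share of the other IDR peaks, 3151 of 3802 (82.9%). In libraries 1, 2 and 3, 36, 36 and 33 of the member peaks were matched, and 3669, 3513 and 3511 of the others.

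hth had more IDR summits than any other member. It spans 132008 bp on 3R, and with its flanks it held 7 IDR summits and 72 pooled summits. The libraries listed 60, 63 and 72 summits there. Among 77 genes of 100000 to 200000 bp in the annotation, the median was 2 IDR summits (range 0 to 17) and 33 pooled summits (range 0 to 94). Counting hth itself, 19 of these genes had at least 7 IDR summits and 4 had at least 72 pooled ones. All 7 IDR summits of hth were in introns, from 2841 to 96210 bp from its nearest TSS. The peak at 96210 bp was the strongest by pooled signal, with a relative signal of 2.93 in library 1, 2.43 in library 2 and 6.11 in library 3. It led in library 3 alone: the peaks at 2841 and 63938 bp were higher in library 1 (3.39 and 3.10) and in library 2 (3.99 and 3.71). The intron peak 2841 bp upstream of the inner TSS had the opposite order, 3.39, 3.99 and 2.68. Neither TSS had an IDR summit within 1000 bp. The strongest pooled peak there lay 186 bp upstream of the inner TSS at rank 5358.

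**Figure D4:**
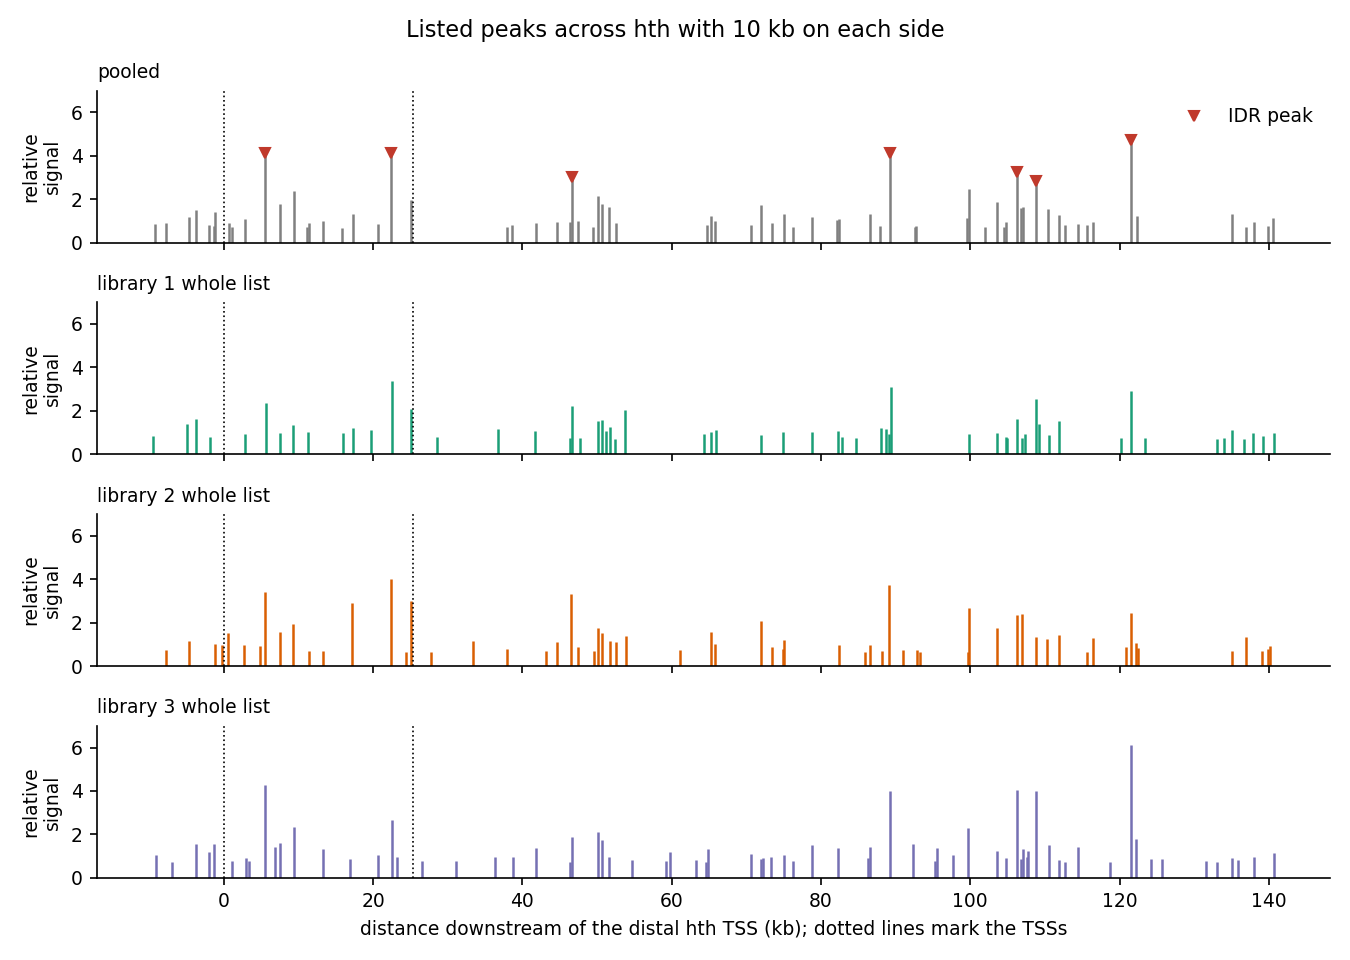
Relative signal of every listed peak across hth with 10 kb on each side, against distance downstream of the distal TSS (kb), in the pooled list and in each library; triangles mark the 7 IDR peaks and dotted lines the TSSs. Peaks are spread over the whole gene, and the IDR peaks lie in introns on either side of the inner TSS.

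Among the classes of homeodomain genes, none had more than 1 member with an IDR promoter summit. The classes are small, and over all genes the shares were 13.5% at promoters and 48.6% in the wider window for IDR summits and 43.5% for pooled promoter summits, so no class is set apart by these counts. The NK and related class had 1 of 17 (tin), the Hox-related genes eve, cad, exex and ind 1 of 4 (cad), and the genes within the Antennapedia complex 1 of 3 (bcd). The LIM genes had 0 of 5 at promoters but 3 of 5 with an IDR summit in the wider window (tup, Awh and Lim1), and all 5 had a pooled promoter summit. The Pax genes ey, toy, prd, gsb and gsb-n had 0 of 5 in either window. Of the paired-like genes, 3 of 7 had an IDR summit in the window (otp, Pph13 and unc-4), and of the TALE genes only hth of 4 did. Other members with an IDR summit in the window were bcd, zen, which shares the bcd peak, cad, zfh1, so, nub, and Dll, Dr, E5, H2.0, ro, C15, unpg and tin of the NK class, with relative signals from 1.40 at H2.0 upwards. The 33 members without one were acj6, al, ap, achi, Lim3, B-H1, B-H2, bap, ems, eve, exd, exex, ey, ftz, gsb, gsb-n, hbn, ind, lbe, lbl, onecut, Optix, pdm2, prd, repo, Rx, scro, slou, toy, vis, vnd, vvl and zfh2.

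Other homeobox genes, listed for comparison, stood closer to their class. Of 37 further homeobox genes outside the list, 6 had an IDR promoter summit (16.2%) against 7.16 for genes of the same class, and 17 had one in the wider window against 21.3. The 6 were eyg, oc, ct, mirr, dve and NK7.1, the last with 7 IDR summits in its window, as many as hth. Of 8 Hox genes, 0 had an IDR promoter summit against 2.26, and 2 had one in the wider window against 5.16. The share of members thus lay between those of the other homeobox genes and the Hox genes, and the differences between these lists were not tested.

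Counts of peaks of any strength around the members varied by library and chromosome arm. The whole lists of libraries 1, 2 and 3 gave 422, 402 and 488 pairs of members and summits, against 499, 504 and 449 for genes of the same class, so library 3 lay above the class value and the others below it. The 7 members on X contributed 32, 33 and 70 pairs. On X, B-H1, a gene of the eye and sense organs, had 3, 1 and 9 summits, and acj6, a POU gene of olfactory neurons, had 1, 5 and 10. The list of library 3 held 4968 peaks on X as a whole, against 3537 and 3833. On chromosome 4, the members zfh2, ey, toy and onecut had 26, 25 and 4 pairs, and the whole chromosome had 98, 105 and 8 listed peaks and a single IDR peak. The IDR count was 0 for these 4 genes; the part of the low peak number of the chromosome in it was not tested. Leaving them out gave 3 members against 9.63 for the class at promoters.

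**Figure D5:**
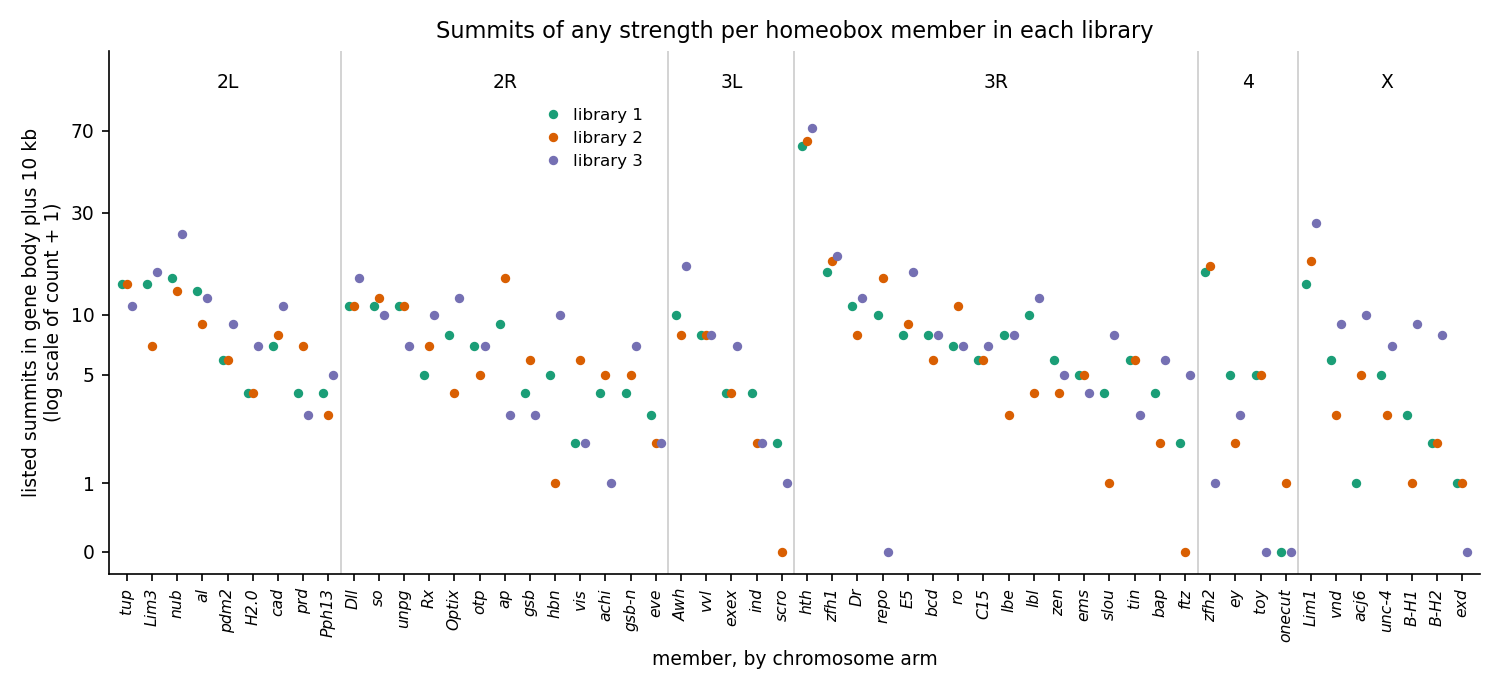
Number of listed summits of any strength in the gene body plus 10 kb of each member, on a log scale of the count plus 1, by library and grouped by chromosome arm. On X the points of library 3 lie highest for most members, on chromosome 4 they lie lowest, or level with library 1 at onecut, except at ey, and at repo library 3 has 0 against 10 and 15.

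For each word searched, the interval around the share among the 37 summits held the share of all IDR summits. With so few summits the intervals are wide, and the 37 are part of all IDR summits. Whether the shares differ cannot be told from this. Within 50 bp of the summit, on either strand, AATATT, an A/T word of the kind bound by the spalt protein Sall4 in mouse, was at 4 of 37 summits (10.8%, Wilson interval 4.29% to 24.7%) and at 14.8% of all IDR summits. AAATAT was at 21.6% against 28.4%. TAATTA, the core word of many homeodomains, was at 8.11% against 7.63%, and GAGAGA at 8.11% against 5.63%. TATCGATA and CAGGTA were at 0 of 37, where 0 allows up to 9.41% by the Wilson interval, and at 1.12% and 1.77% of all IDR summits. Mean GC content within 50 bp was 39.2% ± 10.8 (SD over 37 summits) against 36.3% ± 9.42 over 3839. It ranged from 21.8% to 63.4% among the member summits.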

How the data were processed

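Peaks were deposited on dm6 as a list of 30000 per library, a pooled list of 30000 and an IDR list of 3839, per the deposited notes. Lists of fixed length include background. Not given in the sources used here: peak caller, aligner and signal scale. The deposited signal was used to rank peaks and for relative signal. The deposited −log10 q-value was not used. The files give no reads, so depth is unknown, and intervals cover counting error only. Genes and TSSs came from Ensembl BDGP6.54, release 115, on 6 arms, without transposable elements, and sequence from RefSeq Release 6. A summit counts for every gene with a TSS within 1000 bp, or whose body plus 10 kb holds it. Class values are means over the other genes of each member's length decile and number of TSSs (4 or more together), summed over members. Summits within 100 bp were matched. The members and lists were chosen with earlier results of these data known. Members with an IDR promoter summit, or among the 10 with the most or the strongest IDR summits in the window, were described. Not every peak of theirs is given with its values. Neighbouring genes share peaks and are not independent. Counting was tested on simulated data. Scripts ran under Python 3.11.15 with pandas 2.3.3 and numpy 2.4.6 for counting, matplotlib 3.10.9 for figures and scipy 1.17.1 for intervals.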

Additional observations from a re-analysis of the deposited data

How the results depend on the processing

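No paired analysis was possible because there is only 1 group. The 3 members with an IDR promoter summit were below the class value in every alternative run. They became 8 with the strongest peaks of library 2 and 1 to 2 on leaving out each library in turn. The 21 members with an IDR summit in the wider window became 7 without a flank, 11 with the upper 1919 IDR peaks, and 11 to 16 without a library. With the pooled list they became 52, above the class value of 50.01. The 38 pairs became 14 without a flank, 22 with 2000 bp, and 19 to 24 without a library, and their ratio to the class stayed between 0.496 and 0.593. The median relative signal of 2.99 ran from 2.68 to 3.31 without a library, and the promoter share of summits from 30.4% to 45.0%. Within 100 bp of the summit, AATATT (27.0% against 26.0%) and TATCGATA (2.70% against 2.06%) turned from below to above all IDR summits and TAATTA (10.8% against 14.5%) from above to below, while AAATAT was at 43.2% and GAGAGA at 21.6%. The cause of these changes was not tested. Smaller windows and smaller peak sets hold fewer summits. Leaving out chromosome 4 and comparing with the 50 genes nearest in length were chosen after the data were seen. The files hold no read depth, and no limit set by depth can be given.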

Other observations

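Some members lie where a library lists few or no peaks. At repo, the glial homeobox gene, library 3 listed no summit (0) over 74958 bp around the middle of the gene, where the summits on either side of that point were 5089 bp apart in library 1 and 9743 bp apart in library 2. At ap, the LIM gene of the dorsal wing, this distance was 238904 bp in library 3 against 10238 bp and 16051 bp. Around exd, the TALE partner of hth, it was long in all 3 libraries, at 78196 bp, 101859 bp and 115240 bp. Around zfh2 on chromosome 4 it was 122262 bp in library 3 against 2364 bp and 5998 bp. Library 2 also had such stretches. At ey, also on chromosome 4, the distance was 103382 bp against 8178 bp and 3541 bp in libraries 1 and 3. At scro it was 4134958 bp against 38278 bp and 224458 bp, where the gene with its flanks spans 53875 bp. The longest distance at each of these genes exceeded the gene body plus 10 kb on each side, so such stretches are not particular to the genes. These genes were picked out after their values were seen, and the cause was not tested.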
